A study of Danio rerio with 6 samples.

Results

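The transcripts that make up the gut of control zebrafish larvae at 5 days post-fertilization (dpf) were described from the 3 libraries of the BSA group, out of 6 libraries in the study. These 3 libraries were chosen by their labels alone and form every value given here. In the study, wild-type larvae received an injection of recombinant zebrafish IL-26 (rzIl26) or of bovine serum albumin (BSA), the control protein, into the gut and swim bladder. Guts were dissected 1 h later, and each library came from a pool of 10 to 15 guts. All larvae of the BSA group were wild type (WT) and all had been injected, so the libraries hold no untouched gut. The paper places the start of feeding in its animal facility after 5 dpf, so these larvae are taken as unfed. The pools are named BSA 1, BSA 2 and BSA 3, and every run of 3 values below is in that order.

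The larval zebrafish gut is a folded tube of a single epithelial layer, wrapped in smooth muscle and enteric nerves. At 5 dpf it is open at both ends, while yolk lipid is still being used. Its anterior stretch absorbs fat and protein fragments, its middle stretch holds lysosome-rich enterocytes that take up whole protein, and the liver and pancreas drain into it and lie against it. The values are counts of reads per RefSeq transcript row, given as CPM, a row's count scaled to a common library total of 1000000, or as a share of all counts of the library. Reads were not divided by transcript length, so a long transcript takes a larger share than a short one at the same number of molecules, and an order of counts is not an order of molecules. In pooled tissue, fewer cells of a type and less RNA per cell cannot be told apart.

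The label "gut" was checked against epithelial genes. *vil1*, the actin bundler of intestinal microvilli, stood at 2941, 2694 and 3132 CPM, and *cdh17*, a cadherin of intestinal epithelium in mammals, at 1161, 1273 and 1224 CPM. The caudal homeobox gene *cdx1a*, a regulator of the intestine, had 118, 133 and 154 CPM. These epithelial markers were counted in every pool. An exception was *fabp2*, the intestinal fatty acid binding protein and a common enterocyte marker, with 0.431, 1.56 and 0.911 CPM, which rest on 9, 25 and 18 counts. The cause of this low count was not tested.

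The libraries held 20884580, 16049823 and 19767117 counts. Of 16134 rows, 12323 to 12440 had counts in a library, and 3130 were at 0 in all 3. A value of 0 in this table does not show that a transcript was absent. The genes *rpl6* and *rpl29*, which encode ribosomal proteins that every cell uses, were listed at 0 in every pool, as were 4 of 86 ribosomal protein genes in all. Among rows of genes that have 2 or more rows, 68.6% were at 0 in the BSA pools, against 14.2% among genes of 1 row, and those 622 genes held 0.397% of the counts. Counts of near-identical gene copies, such as the trypsin, elastase, chitinase and *apoa4b* genes, are likewise uncertain. Where counting itself is the sole limit, a row at 0 could still hold up to 3 counts, which is 0.144, 0.187 and 0.152 CPM.

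The counts were concentrated in few transcripts. The most abundant row took 2.705%, 2.95% and 2.297% of a library, the top 10 rows took 15.8% ± 0.477, the top 100 took 47.3% ± 0.892 and the top 1000 took 81.1% ± 0.569 (SD, n = 3). It took 111, 120 and 122 rows to reach 50% of the counts and 2124, 2205 and 2263 rows to reach 90%. In every pool 9335 rows reached 1 CPM, 1080 rows reached 100 CPM and 160 rows reached 1000 CPM. The 3 pools shared 94 of their top 100 rows.

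**Figure D1:**
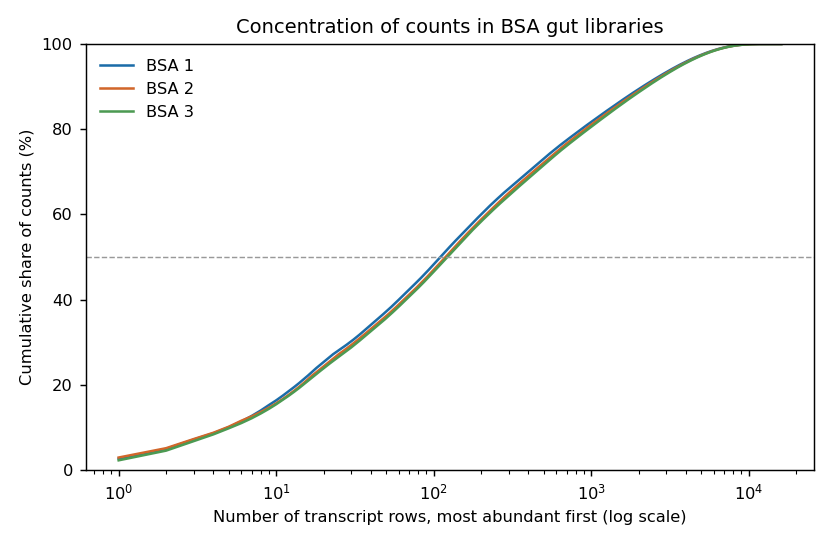
The share of counts (vertical axis, %) reached by the most abundant transcript rows (horizontal axis, number of rows on a log scale) is drawn as 1 line per BSA pool, with a dashed line at 50%. The lines nearly coincide and cross 50% at 111, 120 and 122 rows in BSA 1, BSA 2 and BSA 3.

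The 20 rows with the most counts fell into a few functions. First stood *apobb.1*, an apolipoprotein B, the scaffold of chylomicrons and very-low-density lipoproteins, with 27047, 29495 and 22966 CPM. The elongation factors *eef1a1l1* and *eef2b*, which drive the ribosome along mRNA, followed with 22522, 21899.9 and 22533 CPM and 14698, 13942 and 14191 CPM. Between them in the order of counts came *chia.2*, an acidic chitinase, with 22202, 21521 and 22734 CPM, and the cytoplasmic actin gene *actb2*, with 14164, 14037 and 15725 CPM. The pancreatic proteases *cela1.6*, *prss59.2*, *prss1*, *prss59.1* and *cpa5* supplied 5 of the 20 rows, and the apolipoproteins *apoa4b.1* and *apoa4b.2* supplied a further 2.

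Other rows among the 20 were of metabolism, folding and translation. *pck1*, the phosphoenolpyruvate carboxykinase of gluconeogenesis, had 10928, 10077 and 10408 CPM, and *cyp3a65*, a cytochrome P450 of the drug-metabolizing CYP3A family, had 10526, 9624 and 11288 CPM. Both varied by less than 1.5-fold between pools. *ucp1*, a mitochondrial carrier whose mammalian counterpart uncouples respiration in brown fat, stood at 10852, 9974 and 9041 CPM, and *slc25a5*, the mitochondrial carrier that exchanges ADP for ATP, at 9302, 9186 and 9476 CPM. Further rows were *hsp90ab1*, a constitutive chaperone, with 8928, 9066 and 9362 CPM, *gapdh* of glycolysis, with 8343, 9296 and 8991 CPM, and *rps2* of the small ribosomal subunit, with 6257, 6378 and 6207 CPM.

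Named genes were grouped into 50 lists of functions, regulators and lineages with no gene in more than 1 list. The 1629 genes with a row in these lists held 61.8% ± 0.528 (SD, n = 3) of the counts. Ribosomal proteins led with 12.7% ± 0.176, followed by fat absorption and lipoprotein assembly with 7.32% ± 0.634 and exocrine pancreas enzymes with 6.87% ± 1.03. Translation factors took 6.05% ± 0.0878, glycolysis and gluconeogenesis 4.31% ± 0.181 and epithelial defence and lectins 3.37% ± 0.0927 (all SD, n = 3). Of the top 100 rows by mean CPM, 31 were ribosomal proteins, 9 exocrine pancreas enzymes and 8 genes of fat absorption, while 17 were in no list.

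**Figure D2:**
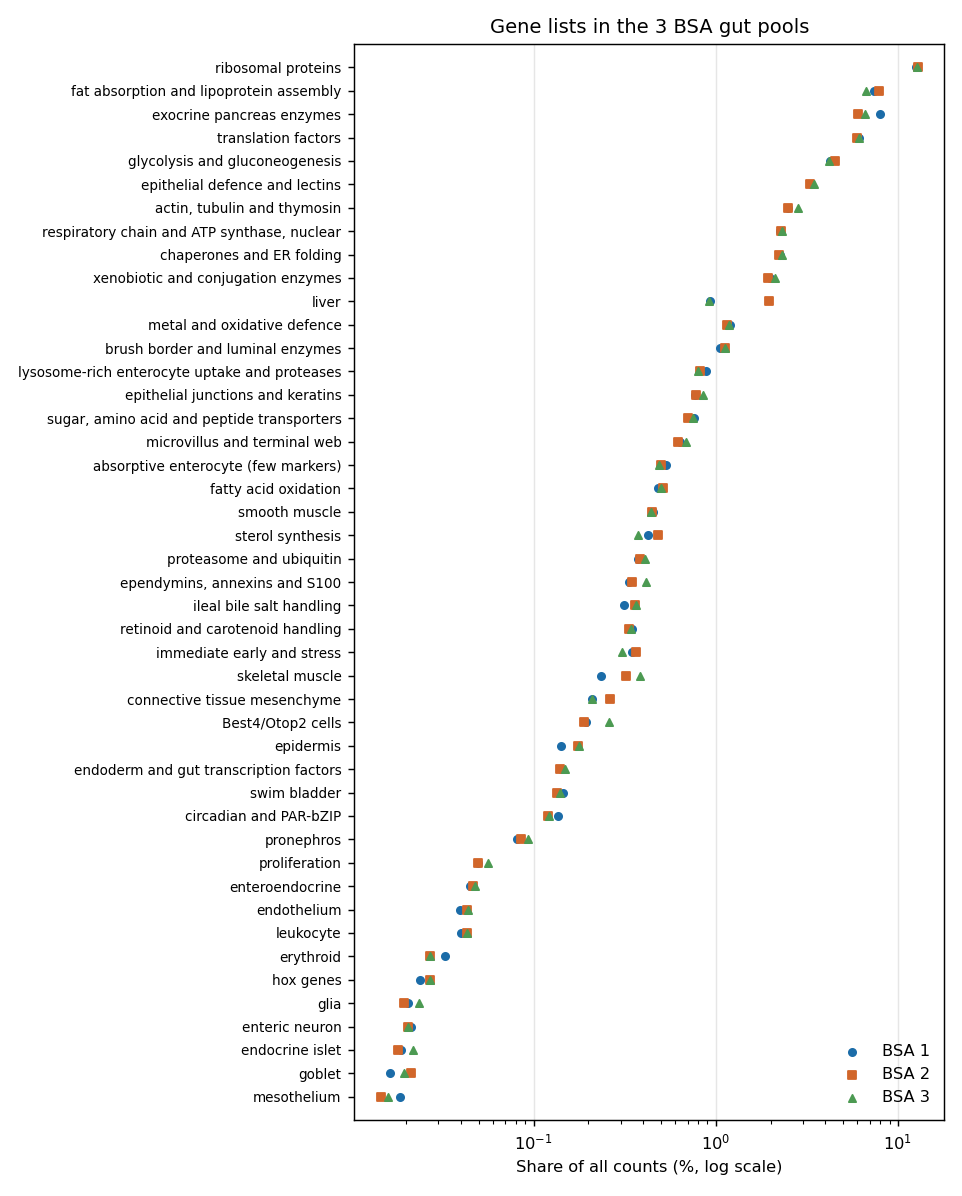
Each row is a gene list with at least 0.01% of the counts, and its 3 symbols give the share of all counts (horizontal axis, %, log scale) in BSA 1, BSA 2 and BSA 3. Shares run from 12.7% for ribosomal proteins down to 0.0162% for mesothelium on average, and the symbols of the liver list lie farthest apart among the lists above 0.1%, with 0.929%, 1.96% and 0.917%.

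Genes of fat absorption take up dietary lipid, re-esterify it in the enterocyte and pack it into lipoproteins. Their list held 7.4005%, 7.903% and 6.64% of the counts, and 25 of 29 genes reached 1 CPM in every pool. *apobb.1* alone made up 36.2% of the list. The apolipoproteins of the A-IV kind, which coat chylomicrons, stood at 8686, 8812 and 8643 CPM for *apoa4b.1* and 7184, 6352 and 6893 CPM for *apoa4b.2*. *apoea*, an apolipoprotein E, the ligand for lipoprotein uptake, had 7152, 5892 and 5495 CPM. Those 3 genes differed by at most 1.301-fold between pools. *apoa1b*, an apolipoprotein A-I of high-density lipoprotein, did not share that steadiness, with 4360.3, 10272 and 4003 CPM and its highest value in BSA 2. The share of the list was highest in BSA 2, but most of its genes were not. Of 25 genes at 5 CPM or more, 15, 5 and 5 were highest in BSA 1, BSA 2 and BSA 3, against 1636, 1909 and 3630 of 7175 named genes. The liver list was also highest in BSA 2, and its part in these values was not tested.

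The intracellular carriers of fatty acids were represented by several family members. *fabp1b.1*, a liver-type family member that zebrafish enterocytes express, had 3643, 3293 and 4242 CPM, and *fabp6*, the ileal bile acid binding protein, had 2817, 3194 and 3191 CPM. *fabp10a*, the hepatocyte family member of fish, had 382, 1431 and 480.2 CPM and was 3.74-fold higher in BSA 2 than in the lowest pool. *fabp3*, the heart-type member, stood at 78.7, 116 and 73.8 CPM and *fabp4a*, named for the adipocyte form, at 25.95, 16.5 and 18.1 CPM. *fabp7a*, the brain-type member found in glia, had 5.46, 8.16 and 8.85 CPM. Of the 10 family genes with a row, 6 reached 1 CPM in every pool.

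Exocrine pancreas enzymes are made by acinar cells and are emptied into the gut lumen. They held 8.02%, 6.02% and 6.57% of the counts, 26 of 32 genes reached 1 CPM in every pool, and *cela1.6* made up 17.1% of the list. The elastase gene *cela1.6* had 13200.3, 10516 and 11498 CPM. The trypsin genes *prss59.2*, *prss1* and *prss59.1* had 13353, 10098 and 10830.3, 12866, 9838 and 10580.3, and 9768, 7045 and 7477 CPM. *cpa5*, a carboxypeptidase that trims peptides from their C-terminal end, had 9485, 7084 and 7576 CPM. BSA 1 was the highest pool and BSA 2 the lowest for all 5 of these genes, with *cpa5* and *prss59.1* differing by 1.34-fold and 1.39-fold. The labels name the gut alone, and how much pancreas each dissection kept was not recorded in them.

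Brush border enzymes sit on the luminal face of the enterocyte and finish digestion there. Their list held 1.06%, 1.12% and 1.13% of the counts. *anpepb.1*, an aminopeptidase N that cleaves single residues from peptides, had 3857, 4389 and 4826 CPM. *mep1a.1* and *mep1a.2*, subunits of the metalloprotease meprin, had 615, 712 and 586 CPM and 448, 457 and 369 CPM. *dpp4*, a dipeptidyl peptidase, stood at 459, 459 and 464 CPM with a spread of 0.602% (coefficient of variation, n = 3). Of the genes in the list, 12 of 14 reached 1 CPM in every pool, and disaccharidases such as sucrase-isomaltase and lactase were not analysed here.

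Transporters for peptides, sugars and amino acids took 0.761%, 0.703% and 0.7503% of the counts. *slc15a1b*, the peptide transporter PepT1, had 1974, 1811 and 1976 CPM, and *slc5a1*, the sodium-glucose cotransporter SGLT1, had 1648, 1394 and 1459.9 CPM. *slc6a19b* and *slc6a19a.1*, neutral amino acid transporters of the B0AT1 kind, had 773, 854 and 852 CPM and 713, 644 and 819 CPM. All 4 were within 1.5-fold across the pools. *slc43a2b*, a transporter of large neutral amino acids, stood at 1059.8, 797 and 899 CPM. The microvillus and terminal web list, which holds the actin bundlers and scaffolds of the brush border, took 0.633%, 0.622% and 0.687% of the counts, of which *vil1* was 45.1%. *pdzk1*, a scaffold for apical transporters, had 1743, 1727 and 1691 CPM, and *ezra*, an ezrin that ties membrane to actin, had 492, 548 and 633 CPM.

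The pools were of whole guts, so no value can be assigned to a region of the gut. Bile salt recovery, a task of the ileum in mammals, had 0.315%, 0.3598% and 0.364% of the counts, and *fabp6* made up 88.6% of that. *slc10a2*, the apical sodium-bile acid cotransporter, had 137, 177 and 205 CPM and was lowest in BSA 1, with 1.49-fold between the extremes. *slc51a*, one subunit of the basolateral bile salt exporter, had 87.002, 118 and 99.4 CPM, and *nr1h4*, the bile acid receptor FXR, had 27.4, 33.5 and 39.4 CPM. *nr0b2a*, a nuclear receptor that FXR induces in mammals, stood at 76.4, 74.6 and 107 CPM. *fgf19*, the hormone by which the mammalian ileum restrains bile acid synthesis, was listed at 0 in every pool; it has 2 rows.

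Lysosome-rich enterocytes take protein from the lumen by endocytosis and digest it inside the cell. Their list held 0.887%, 0.815% and 0.802% of the counts, and 30 of 36 genes reached 1 CPM in every pool. The cathepsin L genes *ctsl.1* and *ctsla* had 2004, 2136 and 1740.2 CPM and 2003, 1347 and 1530.5 CPM. *lgmn*, the asparaginyl endopeptidase legumain, had 1479.9, 1265 and 1297 CPM, and the cathepsins *ctsh* and *ctsd* had 369, 399.8 and 392 CPM and 372, 298 and 369 CPM. Lysosomal proteases occur in all cells, and the uptake receptor genes *cubn* and *amn* that define these enterocytes were not analysed here, so the share is not a measure of those cells alone.

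Retinoid and carotenoid handling, which turns dietary carotenoids into vitamin A, took 0.347%, 0.333% and 0.342% of the counts, with a coefficient of variation of 2.13% (n = 3). *rbp2a*, the cellular retinol binding protein of the enterocyte, had 1611, 1432 and 1551 CPM. *bco1* and *bco1l*, oxygenases that cleave beta-carotene and related carotenoids, had 498, 476 and 481 CPM and 319, 341 and 332 CPM. *rdh1* and *retsat.2*, which oxidize and saturate retinol, had 319.5, 317 and 321 CPM and 326, 351 and 354 CPM.

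The list of epithelial defence and lectins took 3.34%, 3.296% and 3.47% of the counts, and chitinases made up most of this. Without *chia.2* and the galectin gene *lgals2b* it held 0.525%, 0.52% and 0.546%. Whether these genes serve defence here was not tested. *chia.2* was 65.7% of the list, and *chia.1* added 4072, 3842 and 4016 CPM. *lgals2b*, a galectin that binds beta-galactosides, had 5933, 6248 and 6546 CPM, and *muc13b*, a membrane mucin, had 601, 608 and 717 CPM. These abundant genes differed little between pools, while the scarcer members of the list differed more: 10 of the 20 genes at 5 CPM or more varied by 1.5-fold or more, against 659 of 7175 named genes (9.18%). Among them was *itln3*, an intelectin that binds microbial sugars, with 2.203, 23.9 and 6.32 CPM, named after its values were seen.

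Enzymes that modify and conjugate foreign compounds took 1.99%, 1.92% and 2.12% of the counts, and *cyp3a65* was 52.1% of this. *cyp2y3*, a cytochrome P450, had 1007, 1101 and 1323 CPM, *sult6b1*, a sulfotransferase, had 954, 789 and 1012 CPM and *gstp1.2*, a glutathione S-transferase, had 624, 722 and 828 CPM. *cyp1a*, the classic target of the aryl hydrocarbon receptor, had 580.0, 316 and 320.2 CPM, with BSA 1 above the other pools. It was named after its values were seen. Genes of metal and oxidative defence took 1.19%, 1.16% and 1.18%, led by *selenop*, the selenium carrier selenoprotein P, with 2727, 2304 and 2233 CPM, and by the peroxiredoxin *prdx2*, with 2147, 2239.8 and 2134 CPM. The ferritin heavy chain *fth1a* followed with 1923, 1668 and 1692 CPM.

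Energy metabolism took steady shares as whole lists. Glycolysis and gluconeogenesis had 4.24%, 4.52% and 4.18% of the counts, and the nuclear genes of the respiratory chain and ATP synthase had 2.24%, 2.28% and 2.304%. Within the glycolysis and gluconeogenesis list, 6 of 25 genes at 5 CPM or more varied by 1.5-fold or more, against 659 of 7175 named genes (9.18%). They include *fbp2* and *gck*, given below among the rows of widest spread. The respiratory chain and fatty acid oxidation lists had 1 of 80 and 1 of 29 such genes. *atp5f1b* and *atp5fa1*, the catalytic-head subunits of ATP synthase, had 2800.3, 2797 and 2841 CPM and 2769, 2691 and 2773 CPM. Genes of fatty acid oxidation had 0.482%, 0.511% and 0.498%, and 29 of 29 of them reached 1 CPM in every pool. *acadm*, the medium-chain acyl-CoA dehydrogenase, led that list with 594, 640.0 and 649 CPM. *g6pc1a.2*, a glucose-6-phosphatase that releases free glucose, had 1979, 1933 and 2314 CPM, and with *pck1* it placed genes of gluconeogenesis among the more counted rows. *pklr*, the pyruvate kinase of liver and red cells, had 888, 1527 and 973 CPM and was highest in BSA 2; it was named after its values were seen.

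Sterol synthesis varied between pools. It took 0.425%, 0.482% and 0.373% of the counts, and of its 22 genes at 5 CPM or more, 15 were highest in BSA 2 and 16 lowest in BSA 3. Over all 7175 named genes at that level, 1909 were highest in BSA 2 and 1438 lowest in BSA 3 by library totals, and 2205 and 2504 by TMM-scaled totals (trimmed mean of M values). *hmgcs1*, the enzyme that makes HMG-CoA, had 867, 994 and 726 CPM, and *hmgcra*, the rate-limiting reductase, had 359, 357 and 258 CPM. *cyp51*, the lanosterol demethylase, had 587, 729 and 505 CPM. The liver list was also highest in BSA 2, and its part in the sterol values was not tested.

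Ribosomal proteins and translation factors took even shares of the pools, and the median ribosomal protein gene differed by 1.04-fold. Ribosomal proteins took 12.5%, 12.8% and 12.8% of the counts, and 0 of the 68 genes at 5 CPM or more varied by 1.5-fold or more. *rplp0*, the stalk protein of the large subunit, had 5917, 5804 and 5721 CPM and *rpl3* had 4738, 4856 and 4975 CPM. Translation factors took 6.098%, 5.94% and 6.096%, with *tpt1*, the translationally controlled tumour protein, at 4256, 4076 and 4332 CPM. Chaperones and factors of folding in the endoplasmic reticulum took 2.26%, 2.22% and 2.32%, of which *hsp90ab1* was 40.2%. Of the 47 chaperone and folding genes at 5 CPM or more, 6 varied by 1.5-fold or more, against 659 of 7175 named genes (9.18%). The proteasome and ubiquitin list took 0.373%, 0.385% and 0.4103%.

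Epithelial structure was counted through keratins, claudins and cadherins, which took 0.767%, 0.774% and 0.851% of the counts. *krt97* and *krt4*, keratins of the intermediate filament network, had 1964, 1816 and 2150.2 CPM and 1020.3, 1011 and 1139 CPM. *cldn15la*, a claudin used as a marker of zebrafish intestinal epithelium, had 620.1, 647 and 768 CPM and *cldn3d* had 459, 421 and 518 CPM. The actin, tubulin and thymosin list took 2.503%, 2.499% and 2.84%, and 25 of its 30 genes at 5 CPM or more were highest in BSA 3. That count depended on the scaling: with TMM-scaled totals it was 16. Over all named genes at 5 CPM or more, 1636, 1909 and 3630 were highest in BSA 1, BSA 2 and BSA 3 by library totals, and 2531, 2205 and 2440 by TMM-scaled totals.

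The wall of the gut was represented by smooth muscle, connective tissue, vessels and nerves. Smooth muscle took 0.45004%, 0.447% and 0.444% of the counts, a ratio of 1.01 between the highest and the lowest pool (1.08 with TMM-scaled totals). *acta2*, smooth muscle actin, had 2005, 1898 and 1844 CPM. *myh11a*, the smooth muscle myosin heavy chain, had 688, 759.8 and 701 CPM, and *tagln*, the actin-binding transgelin, had 571, 561 and 545 CPM. Connective tissue took 0.2104%, 0.262% and 0.209%, of which the fibronectin gene *fn1b* was 53.1%. Without *fn1b* the list held 0.102%, 0.111% and 0.107%, so most of its rise in BSA 2 came from that gene. The liver list was also highest in BSA 2, and its part in the *fn1b* counts was not tested. The collagen I genes *col1a1b* and *col1a2* had 233, 269 and 247 CPM and 175, 178 and 162 CPM. Endothelial genes took 0.0393%, 0.0428% and 0.0437%, with *plvapa*, a protein of fenestrated vessels, at 109, 128 and 135 CPM and *kdrl*, a receptor of vascular endothelial growth factor, at 41.8, 42.6 and 50.1 CPM.

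Genes listed for enteric neurons and glia had low counts. The neuron list took 0.0212%, 0.0204% and 0.0203% of the counts, and 20 of 29 genes reached 1 CPM in every pool. *hand2*, a transcription factor of enteric neurons that gut mesenchyme also uses, had 43.8, 38.2 and 42.9 CPM. *phox2bb* and *phox2a*, the homeobox genes of autonomic neurons, had 18.96, 17.4 and 17.2 CPM and 19.1, 19.8 and 16.9 CPM, and *ret*, the receptor for the glial-derived growth factor GDNF, had 25.1, 26.2 and 24.4 CPM. *nos1*, which makes the relaxing transmitter nitric oxide, stood at 13.9, 11.5 and 9.81 CPM and was named after its values were seen. The glia list took 0.0204%, 0.0193% and 0.0234%, with 7 of 16 genes at 1 CPM in every pool. Of this share, 46.2% was *glula*, a glutamine synthetase that other cells also express, with 91.6, 82.1 and 118 CPM. Without *glula* and *mbpb*, another listed gene, 0.0064%, 0.00646% and 0.00623% were left, so the list cannot be read as a measure of glia. *erbb3b*, a neuregulin receptor of Schwann and glial cells, had 38.02, 42.9 and 41.3 CPM.

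The lists for blood and immune cells took small shares of the counts. Erythroid genes took 0.0326%, 0.0269% and 0.0269% of the counts. The embryonic globins *hbae3*, *hbae1.1* and *hbbe1.1* had 88.97, 67.9 and 63.1, 34.9, 30.8 and 27.2, and 27.7, 18.1 and 21.96 CPM, each highest in BSA 1, and the rows of the adult globins *hbaa1*, *hbaa2*, *hbba1* and *hbba2* were listed at 0. Leukocyte genes took 0.0399%, 0.0431% and 0.0429%, with 33 of 65 genes at 1 CPM in every pool. *rac2*, a small GTPase of blood cells, had 86.3, 80.6 and 96.2 CPM, and *ncf1*, a subunit of the phagocyte oxidase, had 49.4, 53.3 and 62.7 CPM. *lcp1*, the L-plastin of leukocytes, had 23.03, 28.5 and 24.99 CPM. The rows of *mpeg1.1*, *lck* and *cd8a*, which define macrophages and T cells, were listed at 0, and *ptprc* was not analysed here.

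Hormone genes were scarce, and each is given that reached a mean of 1 CPM. *penka*, the enkephalin precursor, had 112, 106 and 96.4 CPM, *pyyb*, a peptide YY, had 73.2, 75.8 and 73.2 CPM, and *vipb* and *vip*, precursors of vasoactive intestinal peptide, had 75.4, 86.1 and 84.5 CPM and 15.7, 20.7 and 19.3 CPM. These 4 genes varied by less than 1.5-fold between pools. *adcyap1a*, the precursor of the neuropeptide PACAP, stood at 16.2, 20.6 and 19.7 CPM and *gal*, galanin, at 5.46, 9.097 and 11.2 CPM. The incretin precursor *gip* had 7.805, 7.04 and 10.4 CPM, the tachykinin precursors *tac3a* and *tac1* had 4.41, 5.17 and 4.604 CPM and 0.575, 1.37 and 1.87 CPM, and *insl5b*, an insulin-like peptide, had 3.11, 4.42 and 4.45 CPM. At the low end, *calca* (calcitonin) had 2.15, 2.37 and 2.78 CPM, *ghrl* (ghrelin) 1.48, 2.18 and 3.04 CPM and *pomca* (proopiomelanocortin) 1.34, 2.24 and 2.63 CPM. The whole enteroendocrine list took 0.0445%, 0.0465% and 0.0475% of the counts, and which cells, endocrine or neuronal, made these transcripts was not tested. *tph1b*, the enzyme for serotonin synthesis, stood at 31.3, 25.3 and 27.7 CPM.

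Glucagon and somatostatin genes varied between pools. *gcga* and *gcgb*, the glucagon precursors, had 25.3, 42.7 and 32.3 CPM and 6.61, 4.92 and 19.9 CPM. *gcga* was counted in the islet list and *gcgb* in the enteroendocrine list. The somatostatin genes *sst1.1* and *sst2* had 7.901, 8.35 and 26.3 CPM and 10.5, 7.103 and 22.5 CPM. BSA 3 was the highest pool for *gcgb*, *sst1.1* and *sst2*, by 4.05-fold, 3.32-fold and 3.17-fold over the lowest pool, while *gcga* was highest in BSA 2. The row of *ins*, the insulin gene that defines beta cells, was listed at 0 in every pool. *mafa*, a transcription factor of mature beta cells in mammals, made up 64.4% of the islet list with 136, 113 and 126 CPM, and without it the list held 0.00506%, 0.00665% and 0.00905% of the counts.

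The lists for Best4/Otop2 cells and mesothelium rested on 1 gene each and cannot be read as cell types. In the mesothelium list, 95.1% came from *podxl*, a podocalyxin that kidney and vessels also express in mammals, with 176, 136 and 151 CPM. The list for Best4/Otop2 cells took 0.193%, 0.19002% and 0.259% of the counts, but *tm4sf4*, a membrane protein with 4 spans, was 96.6% of it, and without that gene 0.00691%, 0.00773% and 0.00705% were left. The defining genes *best4* and *otop2* were not analysed here. *cftr*, the chloride channel that these cells and other epithelia use, had 25.6, 24.4 and 23.3 CPM. In the goblet list, *agr2*, a disulfide isomerase needed for mucin folding, had 75.1, 110.5 and 105 CPM, and the gel-forming mucins were not analysed here. The tuft-like list took 0.000742%, 0.000791% and 0.000966%, and *pou2f3*, the factor that defines tuft cells in mammals, was listed at 0.

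Neighbouring organs were looked for in the same way. The swim bladder list, of interest because that organ was also injected, took 0.145%, 0.134% and 0.1401% of the counts. Most of this came from *slc34a2a* and *slc34a2b*, phosphate cotransporters that the intestine uses too, with 930.4, 938 and 894 CPM and 282, 245 and 364 CPM, and without both the list held 0.02402%, 0.0157% and 0.0143%. *sftpbb*, a surfactant protein gene, had 4.69, 4.17 and 4.55 CPM. *anxa5b*, an annexin, had 148, 72.2 and 42.1 CPM and was highest in BSA 1. The pronephros list took 0.0806%, 0.0856% and 0.0934%, of which the bicarbonate cotransporter *slc4a4a* was 86.5%, while *slc20a1a* was listed at 0 and *pax2a* had 0.0958, 0 and 0.101 CPM. The epidermis list took 0.1404%, 0.175% and 0.178%, led by *krt91* with 349.9, 461 and 493 CPM and *ca2*, a carbonic anhydrase of many tissues, with 423, 406 and 421 CPM. The eye list took 0.00117%, 0.00124% and 0.000845% and the germ line list at most 0.000163%.

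Transcription factors of endoderm and gut took 0.141%, 0.139% and 0.148% of the counts, and 46 of 64 genes reached 1 CPM in every pool. Beside *cdx1a*, the list was led by *gata5*, a zinc finger factor of early endoderm, with 134, 113 and 131 CPM. The nuclear receptors *nr1h3*, the sterol sensor LXR, and *pparaa*, a fatty acid sensor, had 119, 109 and 119 CPM and 109.5, 107 and 92.2 CPM. *klf5l*, a Kruppel-like factor, had 106, 119 and 112 CPM. *atoh1a* and *onecut1*, factors of secretory and of hepatopancreatic lineages, were listed at 0.

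The *hox* genes assign position along the body axis, from low-numbered paralog groups at the head end to high-numbered ones at the tail end. Their counts were summed over the genes of each group. Group 3 had 61.9, 65.1 and 67.6 CPM, of which *hoxc3a* supplied 31.6, 35.3 and 35.5 CPM. Group 5 had 20.1, 20.2 and 20.5 CPM and group 9 had 24.9, 31.3 and 31.5 CPM. The sum of group 3 was above that of every other group in each pool. Groups 10 and 13 had 28.2, 37.7 and 36.6 CPM and 37.8, 47.98 and 48.97 CPM, the last led by *hoxb13a* with 15.9, 19.6 and 19.5 CPM. Groups 1 and 7 had 1.68, 2.18 and 2.23 CPM and 3.02, 4.24 and 3.54 CPM. Group 8 had 21.3, 18.3 and 15.8 CPM. The sums run over unequal numbers of genes, with 4 in group 3, 6 in group 13 and 1 in group 7, and are not levels per gene. BSA 1 had the lowest sum in groups 1, 2, 3, 5, 7 and 9 to 13, and over all named genes at 5 CPM or more 3294 of 7175 were lowest in BSA 1 by library totals (2407 by TMM-scaled totals).

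**Figure D3:**
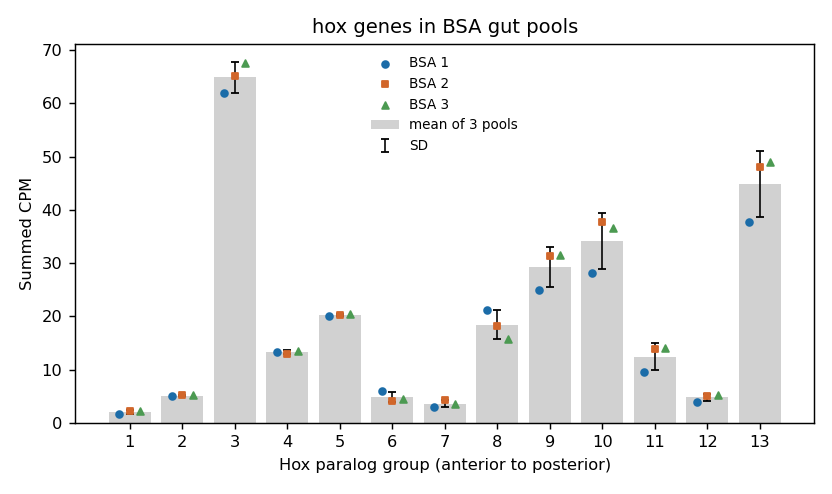
Grey bars give the mean summed CPM (vertical axis) of the *hox* genes in each paralog group (horizontal axis, anterior to posterior), with the SD over 3 pools as error bars and 1 symbol per BSA pool. Group 3 stands highest with 64.9 ± 2.89 CPM, followed by group 13 with 44.9 ± 6.19 CPM, and the number of genes summed differs between groups.

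Genes that respond within minutes to stress, injury or signals were of interest because the larvae had been injected 1 h earlier. With no uninjected gut among these libraries, their values are levels and not responses. The list took 0.347%, 0.367% and 0.305% of the counts. *cebpd* and *cebpb*, inducible transcription factors of the acute phase, had 369, 403 and 394 CPM and 313, 344 and 265 CPM. *mcl1a*, a short-lived inhibitor of apoptosis, had 313, 322 and 295 CPM, *dusp1*, a phosphatase that turns off MAP kinases, had 271, 272 and 249.8 CPM, and *socs3a*, a brake on cytokine signalling, had 167, 206 and 172 CPM. These 5 varied by less than 1.5-fold. In the whole list 11 of 32 genes at 5 CPM or more varied by at least 1.5-fold, against 659 of 7175 named genes (9.18%). By library totals 24 of the 32 were lowest in BSA 3, against 1438 of 7175. With TMM-scaled totals, 2504 named genes were lowest in BSA 3. Among the 24 were *fosab*, a subunit of the AP-1 factor, with 101, 86.7 and 44.9 CPM, and *junbb*, its partner, with 153, 183 and 108 CPM. Both were named after their values were seen.

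Clock genes took 0.136%, 0.121% and 0.121% of the counts. *per2*, a light-induced period gene in zebrafish, had 181, 163 and 138 CPM, and *nr1d2b*, a nuclear receptor that represses clock genes, had 139, 123 and 155 CPM. *nr1d2a*, its paralog, had 99.4, 92.7 and 108 CPM. Proliferation genes took 0.0492%, 0.0498% and 0.0564%, and *pcna*, the sliding clamp of DNA replication, had 47.1, 49.3 and 58.4 CPM. *hmgb2a*, a chromatin protein abundant in dividing cells, had 91.3, 88.5 and 105 CPM, and *ccnd1*, a cyclin of the entry into S phase, had 45.3, 47.98 and 51.5 CPM. The rows of *cdk1* and *plk1*, kinases of mitosis, were listed at 0.

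The spread between pools was small for most transcripts and grew as counts fell. Rows with a mean of 1000 CPM or more had a median coefficient of variation of 3.64% over the 3 pools (166 rows), where counting alone would give 0.525%. Between 10 and 100 CPM the median was 8.06% against 4.53%, and between 1 and 10 CPM it was 15.5% against 11.8%. The biological coefficient of variation, the spread beyond counting noise estimated by edgeR over 10018 rows, was 14.7%. It was 12.9% without BSA 2. This estimate is 1 value for all those rows, and rows raised in 1 pool lift it. It lies above the median coefficient of variation at every level from 10 CPM up, so it does not describe a typical row there. Among 4051 rows with a mean of 20 CPM or more, 113 (2.79%) differed by 2-fold or more between the highest and the lowest pool, and 82 of these were highest in BSA 2. Of those 82 rows, 37 were in the liver list, 36 in no list and the rest in other lists. This split depends on which genes were listed, and the rows in no list were not sorted by tissue. Without BSA 2, 26 rows differed by 2-fold or more.

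Nearly all liver genes were highest in BSA 2. The liver list took 0.929%, 1.96% and 0.917% of the counts, a ratio of 2.14 between the highest and the lowest pool (2.23 with TMM-scaled totals). Of its 56 genes at 5 CPM or more, 54 were highest in BSA 2, against 1909 of the 7175 named genes, and the median gene differed by 2.49-fold, against a median of 1.17-fold over the 7175 named genes at that level. *tfa*, the iron carrier transferrin, had 584, 1891 and 734 CPM, and *apoa2*, an apolipoprotein of high-density lipoprotein, had 1848, 3789 and 1652 CPM. *rbp4*, the plasma retinol carrier, had 959.5, 1579 and 979 CPM. In these 3 genes, and in *fabp10a* above, BSA 2 was clear of both other pools. The list averaged 1.27% ± 0.5997 over the 3 pools and 0.923% without BSA 2. How much liver each dissection kept was not recorded in the labels, and its part in these values was not tested.

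*bhmt*, a methyltransferase of betaine metabolism abundant in liver, varied less than the median gene of the list, with 995, 1048 and 787 CPM. The exocrine pancreas did not follow the liver. Of its 25 genes at 5 CPM or more, 23 were highest in BSA 1 and 22 lowest in BSA 2, against 1636 and 2443 of the 7175 named genes, with a median of 1.41-fold. By TMM-scaled totals 24 of 25 were highest in BSA 1. The skeletal muscle list took 0.233%, 0.3196% and 0.382% of the counts, and which tissue its RNA came from was not tested. Of its 26 genes at 5 CPM or more, 19 were highest in BSA 3, by library totals and by TMM-scaled totals alike. Over the 7175 named genes, 3630 and 2440 were highest in that pool. *actc1b*, a striated muscle actin, had 619.9, 821 and 1010.4 CPM, *atp2a1*, the calcium pump of fast muscle, had 142, 206 and 295 CPM, and *myhz2*, a fast myosin heavy chain, had 76.4, 154 and 339 CPM. The cardiac list was likewise highest in BSA 3, at 0.00377%, 0.00573% and 0.00855% of the counts. The exocrine pancreas, liver and skeletal muscle lists each had another pool on top.

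**Figure D4:**
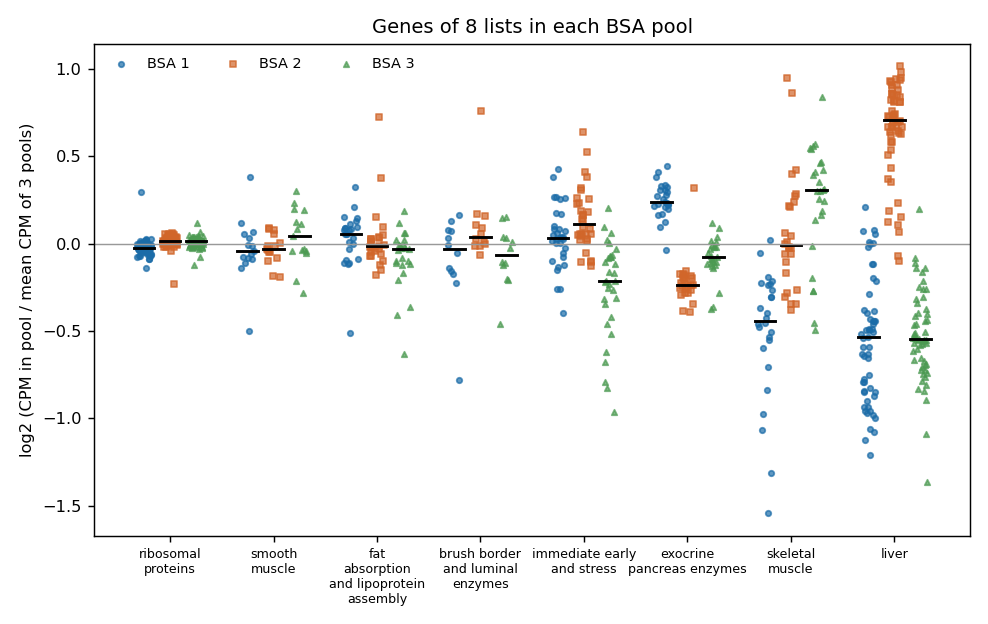
Each symbol is a gene with a mean of 5 CPM or more, placed by the log2 ratio of its CPM in a pool to its mean over the 3 BSA pools (vertical axis), for 8 lists (horizontal axis) and with a black bar at the median. Ribosomal and smooth muscle genes have medians near 0, exocrine pancreas genes are highest in BSA 1 (23 of 25), liver genes in BSA 2 (54 of 56) and skeletal muscle genes in BSA 3 (19 of 26).

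The 12 rows with the widest spread among those at 20 CPM or more were of mixed kinds. *fbp2*, a fructose-bisphosphatase, had 87.6, 57.1 and 0.961 CPM, a ratio of 91.2, and was nearly lacking in BSA 3 alone. *gck*, the glucokinase that phosphorylates glucose in liver and beta cells, had 4.98, 76.6 and 5.01 CPM, with BSA 2 far above the other pools. BSA 2 was also highest for *steap4*, a metalloreductase, with 9.86, 72.9 and 15.1 CPM, for *crp3*, a C-reactive protein, with 18.7, 92.5 and 36.3 CPM, for *cbln11*, a member of the cerebellin family, with 9.62, 57.8 and 12.14 CPM, and for *zgc:172051*, with 15.5, 95.4 and 23.2 CPM. *mfap4.5*, of the microfibril-associated protein 4 family, had 20.8, 52.5 and 9.36 CPM. The keratin *cyt1l* and the fast myosin *myhz1.2* had 8.19, 44.7 and 11.2 CPM and 25.9, 145 and 55.1 CPM, again with BSA 2 on top.

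In the other 3 of the 12 rows, as in *fbp2*, BSA 2 was not the highest pool. *scpp5*, a secretory calcium-binding phosphoprotein of mineralizing teeth, had 7.13, 28.8 and 54.9 CPM and was highest in BSA 3, as were most skeletal muscle genes. The stress-inducible chaperones *hsp70l* and *hsp70.3* had 44.7, 21.5 and 118 CPM and 104, 19.2 and 78.2 CPM, both lowest in BSA 2. *hsp70l* was highest in BSA 3 and *hsp70.3* in BSA 1, so these related genes did not share 1 order of pools.

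**Figure D5:**
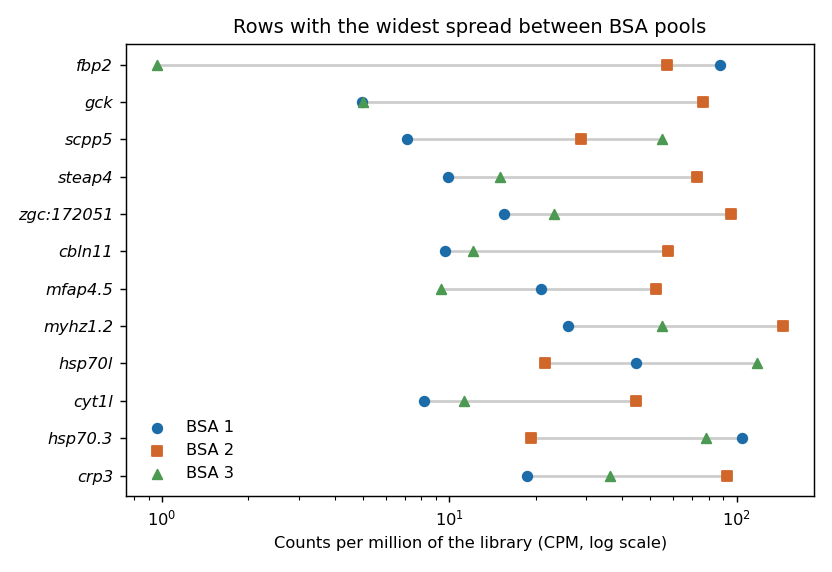
The 12 transcript rows with the largest ratio of highest to lowest pool, among rows with a mean of 20 CPM or more, are plotted by CPM (horizontal axis, log scale) with 1 symbol per BSA pool and a grey line from the lowest to the highest. *fbp2* spans from 0.961 CPM in BSA 3 to 87.6 CPM in BSA 1, and the narrowest of the 12 is *crp3*, with a ratio of 4.95.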

How the data were processed

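Per the labels, stranded mRNA libraries of dissected guts were sequenced in 100-bp pairs and the reads aligned to danRer11. The authors deposited raw whole-number counts per RefSeq transcript, 16134 rows in all. The aligner, the counter, the annotation release and the treatment of shared reads are not given in the sources used here. Symbols for 15776 rows came from a RefSeq gene table of assembly GRCz12tu, used for names only. Rows without a symbol were kept and held 0.314% of the counts on average.

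Columns were matched to the BSA pools by the library name that each label gives. Counts were divided by library totals (16049823 to 20884580) to give CPM, and rows of a gene were summed. With 1 group there was no contrast and no test. Replicates are labelled as biological. The biological coefficient of variation came from edgeR 4.0.16 in R 4.3.3 (estimateDisp, intercept alone, TMM factors, filterByExpr with a minimum count of 10), and tables were made with pandas 2.3.3. On simulated counts of known dispersion the estimate came close to the value put in over rows left unchanged. It came out higher over all rows where some had been raised in 1 pool. The simulated rows had a mean of 20 CPM or more and shared 1 dispersion, so the check did not cover rows below that level.

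The members and the 50 gene lists were chosen with earlier results of these data known. The text names the 20 rows with most counts, at most 5 genes per list, hormone genes at 1 CPM or more, the fatty acid binding proteins, lineage-defining genes at 0 and the 12 rows of widest spread, apart from 2 genes that are not reported here. Genes beyond this rule were picked with their values in view. Alternatives were other denominators, lists without their leading gene, CPM minimums, RLE factors and totals alone, and leaving out each replicate. TMM-scaled totals for shares, the count of 2-fold rows and its alternatives, and gene families were added after the data were seen. Counting intervals and limits cover counting error only.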

Additional observations from a re-analysis of the deposited data

How the results depend on the processing

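No paired analysis was possible because a single group is described and no test was made. The alternatives by coding length were not run, since no transcript or protein lengths were used here. Leaving out the leading gene of a list lowered its mean share by construction. The share fell to 5.70% for exocrine pancreas enzymes, 4.67% for fat absorption and lipoprotein assembly and 12.08% for ribosomal proteins. For brush border enzymes it fell to 0.668% and for ileal bile salt handling to 0.0394%. The liver list fell too, from 1.27% to 1.03%, which lay within 1 SD because its SD was wide, at 0.5997. Taking exocrine pancreas, liver, skeletal muscle, cardiac and erythroid genes out of the denominator raised fat absorption to 7.996%, ribosomal proteins to 13.9%, brush border enzymes to 1.21% and ileal bile salt handling to 0.378%. Without the most abundant row, ribosomal proteins took 13.1%. The mean shares of these lists stayed within 1 SD under TMM-scaled totals, but factors of 0.973, 0.993 and 1.035 could hardly move a mean. The SD rose from 0.176 to 0.315 for ribosomal proteins and from 0.634 to 0.807 for fat absorption. It fell from 0.0385 to 0.0219 for brush border enzymes and from 0.0275 to 0.0201 for ileal bile salt handling. The highest pool of those last lists changed from BSA 3 to BSA 2.

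Leaving out each replicate in turn gave shares of 6.30% to 7.29% for exocrine pancreas enzymes, 7.02% to 7.65% for fat absorption, 12.6% to 12.8% for ribosomal proteins, 0.923% to 1.45% for liver, 1.09% to 1.13% for brush border enzymes and 0.337% to 0.362% for ileal bile salt handling. The rows that reach 50% of the counts numbered 115.5 to 121 on average, and 9430 to 9463 rows reached 1 CPM. The biological coefficient of variation ran from 12.9% without BSA 2 to 15.21% without BSA 3, and was 13.6% to 15.21% under the other settings. The count of rows that differed by 2-fold or more was 110 with TMM-scaled totals, 92 without BSA 1, 89 without BSA 3 and 26 without BSA 2. The depth of 16049823 to 20884580 counts puts 1 count at 0.0479 to 0.0623 CPM, so genes near 1 CPM rest on few reads.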

Other observations

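Gene families were grouped by symbol after the data were seen and are given as values, and some of their genes are also in the lists above. Solute carriers, the membrane transporters of small molecules, had 307 genes with a row, of which 209 reached 1 CPM in every BSA pool, and they held 3.14% ± 0.0385 (SD, n = 3) of the counts. ABC transporters held 0.807% ± 0.0138, led by *abcg2a*, an exporter of xenobiotics and urate in mammals, with 3804, 3626 and 3696 CPM. *abcb4* and *abcc2*, further exporters, had 1036, 1114 and 1074 CPM and 941, 961 and 1119.7 CPM. The sodium pump genes held 0.716% ± 0.0123, nearly all from *atp1a1a.4*, *atp1b1a* and *atp1a1a.1*, with 3442, 3386 and 3412, 2239, 2150.4 and 2159, and 1512, 1471 and 1387 CPM.

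Beside the chitinases, *chs1*, a chitin synthase, had 1524, 1484 and 1534 CPM, and chitinases and chitin synthase together held 2.798% ± 0.0714 of the counts (SD, n = 3). Rows of creatine metabolism were also counted highly: *ckbb*, the brain-type creatine kinase, had 3011, 2975 and 2873 CPM, and *gamt* and *gatm*, the enzymes that make creatine, had 2382, 2313 and 2082 CPM and 906, 859.8 and 651 CPM. Among water and glycerol channels, *aqp8a.1* and *aqp8a.2* had 199, 212 and 221 CPM and 173, 163 and 184 CPM, and *aqp12*, named for a pancreatic form, had 176, 158 and 126 CPM, highest in BSA 1. *cyp7a1*, the first enzyme of bile acid synthesis in liver, had 363, 459.8 and 300.5 CPM, with BSA 2 highest.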
